A study of Mus musculus with 4 samples.

Results

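Capillary endothelial cells are described here in mouse brain after sham surgery and 1, 3 and 7 days after transient middle cerebral artery occlusion (tMCAO), a filament model of ischemic stroke with reperfusion. A cell entered the analysis with 200 to 6000 detected genes and at most 10% mitochondrial UMIs (unique molecular identifiers, each marking 1 captured RNA molecule). Members were chosen by the detection of marker genes in each cell. A cell was taken as a capillary member when it held a UMI of at least 3 of the pan-endothelial genes Cldn5, Pecam1, Cdh5, Flt1 and Ptprb and of at least 2 of the capillary genes Mfsd2a, Tfrc, Slc16a1, Spock2 and Slc7a5. It also held a UMI of at most 1 of the arterial genes Gkn3, Bmx, Sema3g, Vegfc, Cytl1 and Fbln5, of at most 1 of the venous genes Vwf, Nr2f2, Ackr1, Selp and Il1r1, and at most 1 UMI in all of Mog, Kcnj8, Myh11 and C1qa, which mark oligodendrocytes, pericytes, smooth muscle and microglia. In all 16663 of 54754 kept cells met this rule, out of 59429 deposited cells. The sham library held 3446 members, and the day 1, day 3 and day 7 libraries held 4342, 3062 and 5813.

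The study sequenced single cells from the ipsilateral hemisphere of male mice that were 8 weeks old, in 1 droplet library (10x Genomics) for each of the 4 groups. Every animal was perfused to remove blood, and the tissue was digested with papain and cleared of myelin debris. The sample label gives no time for the sham group, whereas the series text places it at day 7. Since each group is 1 library, no test between groups was possible, no p-value is given, and the 95% intervals below cover counting error only and leave out the spread between mice.

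Capillaries make up most of the vascular bed of the brain, and their endothelium forms the blood-brain barrier. The cells are sealed by tight junctions, carry few transport vesicles, and import glucose, amino acids, lactate, thyroid hormone and omega-3 lipids through dedicated carriers while ABC transporters pump drugs out. Along the vessel they grade from an arterial to a venous identity, and leukocyte adhesion after injury is known mainly from the venous end.

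The share of capillary members differed among the libraries. Of the kept cells they made up 33.8% in the sham library (exact binomial interval 32.9 to 34.7%) and 35.1% in the day 7 library (34.4 to 35.9%). The share was lower in between, at 26% on day 1 (25.3 to 26.7%) and 27.1% on day 3 (26.3 to 27.9%). Of the cells with at least 3 pan-endothelial genes, 6286, 8073, 6923 and 10830 in the same order, they were 54.8%, 53.8%, 44.2% and 53.7%. The day 3 share of endothelial cells was therefore the lowest. Depth enters these shares, because the members had a median of 3024 UMIs in the sham library and of 1666, 1910 and 1809 UMIs on days 1, 3 and 7. The rule was also read after thinning cells to 2000 UMIs, with shallower cells left out. This left 4343, 4056, 4010 and 6040 endothelial cells. The members were 60.2%, 51.1%, 38.1% and 50.6% of these, with day 3 again lowest and sham highest.

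**Figure D1:**
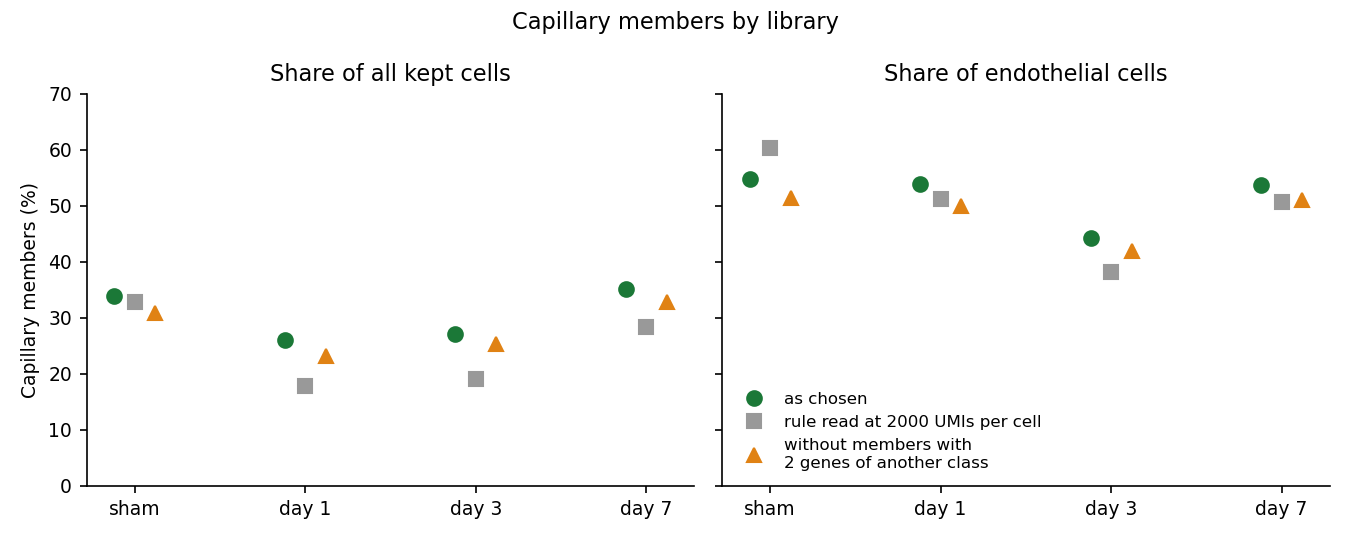
Capillary members as a percent of all kept cells (left) and of endothelial cells (right) in each library. Circles give the rule as stated, and squares the rule read after thinning to 2000 UMIs, with shallower cells left out. Triangles give the share after leaving out members with at least 2 genes of another cell class. On day 3 the share of endothelial cells was the lowest in all 3 readings.

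The venous limit of the rule took out more cells after stroke. Among endothelial cells thinned to 2000 UMIs, 6.59% of the sham cells held at least 2 of the venous genes, against 15.6%, 24.7% and 14.3% on days 1, 3 and 7. Within the members themselves, 27%, 52.4%, 53.5% and 37.6% held 1 venous gene. By level this was mostly Vwf, which encodes the von Willebrand factor that tethers platelets and stood at 81.7, 443, 418 and 236 CPM (UMIs of a gene per 1000000 UMIs, summed over the members of a library). These genes chose the members, so their values are a description. Without the venous limit the members would be 39.4%, 33.6%, 36.3% and 42.1% of the kept cells.

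The other genes of the rule are also given as a description. Mfsd2a, the carrier of omega-3 lysolipids, stood at 682, 363, 552 and 480.5 CPM, in the order sham, day 1, day 3, day 7 that is kept throughout. Tfrc, the transferrin receptor, stood at 490, 507, 375 and 1168 CPM. Slc16a1, the lactate and ketone carrier MCT1, stood at 320.3, 623, 383 and 502 CPM. Mfsd2a was thus lowest and Slc16a1 highest on day 1, and Tfrc was highest on day 7. Slc7a5, the large neutral amino acid carrier, stood at 841, 857, 1022 and 1113 CPM, and the proteoglycan Spock2 at 2735, 2274, 2745 and 4271 CPM. Members just inside the capillary threshold, with 2 of its genes, numbered 442, 840, 678 and 906, and cells just outside, with 1, numbered 223, 312, 323 and 455. The capillary gene Itm2a, which the rule does not use, stood at 3548 CPM just inside and 2387 CPM just outside in the sham library, and the inside level was the higher on each of the 3 days as well.

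The label was checked against genes outside the rule, in members chosen for arterial genes (375, 283, 517 and 647 cells) and venous genes (57, 110, 249 and 99 cells) in the same libraries. In the sham library Car4, a membrane carbonic anhydrase of capillaries, stood at 1094 CPM in the capillary members, 10.7 CPM in the arterial members and 109.5 CPM in the venous members. Slc22a8, an organic anion carrier, stood at 458, 29.1 and 164 CPM in the same order, and Itm2a at 5432, 842 and 2426 CPM. The arterial connexin Gja4 stood at 15 CPM in the capillary members and 320.3 CPM in the arterial members, and the arterial gene Stmn2 at 53.1 and 974 CPM. All 5 of these genes separated the capillary members in the direction of their name.

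Some members carried RNA of other cell classes. A member with a UMI of at least 2 of 4 genes of microglia, oligodendrocytes, pericytes, smooth muscle, astrocytes, neurons, choroid plexus, fibroblasts or neutrophils was counted as such, and there were 448 in the sham library, 607 on day 1, 277 on day 3 and 601 on day 7. They held 17.4%, 30.3%, 14.3% and 15.1% of the members' UMIs. The day 1 library stood apart, because 63 members with at least 3 choroid plexus genes held 10.1% of its member UMIs. Members there with at least 2 astrocyte genes held 8.38% and those with at least 2 neuron genes 7.7%, both the highest of the 4 libraries. The 6 choroid plexus genes summed to 3960, 30432, 8511 and 5330 CPM over all members, nearly all of it Ttr, the transthyretin made by the choroid plexus. Without the members that held genes of another class the choroid plexus sum was 1469, 2770, 2107 and 1221 CPM. The 7 neuronal genes summed to 162, 594, 24.9 and 77.3 CPM over all members and to 59.2, 159, 12.5 and 46.9 CPM without those members. The 7 astrocyte genes summed to 51.9, 222, 54.3 and 77.3 CPM over all members and to 28.6, 66.4, 30.1 and 47.5 CPM without them. The counts over all genes are therefore given with all members and without these members, an alternative chosen after seeing the data, and the counts of a list's rises and falls without them are given where they differ. Scrublet called 24, 158, 15 and 98 members as doublets. Between 1 and 9 cell barcodes were shared by the members of any pair of libraries.

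The largest differences from sham were on day 1. A gene was compared when it reached 50 CPM in the sham or the later library, with the genes of the rule and mitochondrial genes left out, and it counts as having risen or fallen when the log2 ratio of the levels, with 10 CPM added to both, was at least 1 in size, a 2-fold change. A gene under 50 CPM in sham entered through its later level alone, so that its rise is given as a description. On day 1, 117 of 3790 genes rose (3.09%) and 120 fell (3.17%). On day 3, 72 of 3803 rose (1.89%) and 38 fell (0.999%). On day 7, 49 of 4072 rose (1.2%) and 41 fell (1.01%). Without the members that held genes of another class, 54 of 3744 genes rose on day 1 (1.44%) and 91 fell (2.43%), 75 of 3832 rose on day 3 (1.96%) and 33 fell (0.861%), and 55 of 4080 rose on day 7 (1.35%) and 39 fell (0.956%). Leaving them out thus took the rises of day 1 from 117 to 54 and changed the other 5 counts less. The 3 comparisons share the sham library. The median log2 ratio over all genes compared was -0.10 on day 1, 0.02 on day 3 and 0.06 on day 7. The gene lists described below hold genes of 1 pathway or function each, and a list's median is read against these values. Its counts of rises and falls are read against the percentages above. Counts of a list's genes above or below sham are a description, because the share of all genes on each side was not counted.

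Genes of the interferon response were high in the sham members and low after stroke. Interferons act through their receptors on short elements in the promoters of these genes, whose products restrict viruses. Of the 17 genes of the list, 16 fell on day 1, 7 on day 3 and 12 on day 7, and none rose. The median log2 ratio was -2.09, -0.82 and -1.28 on the 3 days. Without the members that held genes of another class, 15, 7 and 12 of the 17 fell.

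Isg15, a ubiquitin-like protein attached to other proteins after interferon, stood at 1907 CPM in the sham members and at 227, 547 and 333 CPM on days 1, 3 and 7. Its ratio to sham was 0.119 on day 1 (exact interval 0.114 to 0.124). The ratio was 0.287 on day 3 (0.278 to 0.296), and on day 7 it was 0.175 (0.169 to 0.18). The RNA-binding effector Ifit3 stood at 766, 72.2, 209.9 and 167 CPM. It shares sequence with its neighbour Ifit3b, which was lower but followed the same course (284, 29.2, 73.2 and 58.1 CPM), so that reads may be split between them. Irf7, the transcription factor that amplifies the interferon response, stood at 899, 112, 324 and 214 CPM. These genes were lowest on day 1, and none was back at its sham level on day 7. Bst2, which tethers budding virus to the membrane, stood at 1116, 349, 627 and 389.7 CPM, and Ifitm3, which blocks viral entry, at 4101, 1927, 3630 and 1287 CPM, the lowest level of Ifitm3 being that of day 7. The interferon-gamma-induced GTPases had another course. Igtp stood at 139, 28.8, 220.1 and 67.7 CPM, with a day 3 ratio of 1.59 (1.48 to 1.69), and Iigp1 at 188, 40.2, 239 and 96.7 CPM, so both were above sham on day 3. Igtp overlaps Irgm2, another such GTPase gene, so that its level is uncertain. Ifi27 was the member that did not fall, at 328, 436, 556 and 359 CPM.

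The promoters of the 3 list genes with the largest falls on day 1 are shown because they move together and 2 of them lie on 1 chromosome. They are the 250 bases before and 50 after the gene start from RefSeq on GRCm38.p6, with matches in capitals, on either strand, to a pair of GAAA separated by any 2 bases, the core of an interferon response element (a motif added after the data were seen). Isg15 lies on the reverse strand of chromosome 4 (156199424 to 156200818), and its window is chr4:156200769-156201068. Ifit3 (34583531 to 34588731) and Ifit1 (34640871 to 34650009) lie on the forward strand of chromosome 19, with the windows chr19:34583279-34583578 and chr19:34640639-34640938.
Isg15: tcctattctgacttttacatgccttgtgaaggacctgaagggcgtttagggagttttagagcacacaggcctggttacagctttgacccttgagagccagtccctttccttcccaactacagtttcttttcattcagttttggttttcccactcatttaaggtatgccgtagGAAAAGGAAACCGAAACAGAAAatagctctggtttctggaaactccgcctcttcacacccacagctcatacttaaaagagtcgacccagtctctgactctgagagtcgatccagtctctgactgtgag
Ifit3: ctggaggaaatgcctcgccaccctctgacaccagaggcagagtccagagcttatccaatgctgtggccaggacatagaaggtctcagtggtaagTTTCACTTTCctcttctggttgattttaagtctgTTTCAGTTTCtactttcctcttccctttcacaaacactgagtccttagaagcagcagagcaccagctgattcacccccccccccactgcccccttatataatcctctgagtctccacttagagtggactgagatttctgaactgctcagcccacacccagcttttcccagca
Ifit1: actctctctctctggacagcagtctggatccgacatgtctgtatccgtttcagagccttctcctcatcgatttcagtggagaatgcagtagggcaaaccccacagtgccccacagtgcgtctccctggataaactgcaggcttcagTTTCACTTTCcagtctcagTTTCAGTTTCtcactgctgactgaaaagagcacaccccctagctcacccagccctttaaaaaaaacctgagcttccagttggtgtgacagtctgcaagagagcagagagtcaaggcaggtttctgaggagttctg
The Isg15 window held 3 overlapping matches and the other windows 2 each. Of the 17 interferon genes 13 were found in the promoter table by symbol, and 7 of these windows (53.8%) held a match, against 1122 of 32544 windows of the same length (3.45%). The list was made of genes that interferon induces, so that this share describes the list and not the falls.

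The interferon list was also highest in the sham library in other cells. The summed level of the list was 12017, 3661, 7645 and 3974 CPM in the capillary members, 13964, 4251, 12229 and 4803 CPM in the arterial members, and 12009, 5452, 9421 and 4978 CPM in the venous members. Pericyte-class cells stood at 6191, 3313, 2469 and 2172 CPM and microglia-class cells at 4524, 1590, 1871 and 1516 CPM, whereas oligodendrocyte-class cells were low in all 4 libraries (599.5, 525, 637 and 431 CPM). The sham library was thus the highest in each of the 3 endothelial groups, in pericytes and in microglia. With 1 sham library, the surgery group and the library cannot be told apart.

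The interferon level was spread over most sham members rather than held by a few. Members with fewer than 2000 UMIs, 1174, 2494, 1630 and 3261 cells, were left out of every reading of the members at this depth. Among the members thinned to 2000 UMIs (2272, 1848, 1432 and 2552 cells), a UMI of Isg15 was found in 92.2% of the sham cells and in 29.2%, 52.4% and 40% of the day 1, day 3 and day 7 cells. In oligodendrocyte-class cells thinned to the same depth, which should lack it, the shares were 2.02%, 0.699%, 0.997% and 0.577%. Without thinning, the member shares of Isg15 were 79.9%, 25.6%, 46.9% and 34.1% and those of the oligodendrocyte-class cells 8.28%, 2.22%, 2.66% and 2.14%, at median depths of 9347, 5251, 7106 and 7482 UMIs in the latter. The median thinned cell held 24, 7, 15 and 7 UMIs of the list. No UMI of the list was found in 0.044%, 2.16%, 0.14% and 0.705% of the cells.

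Antigen presentation genes were below sham on day 1, mostly above it on day 3 and mostly below it again on day 7. Of 9 genes compared on day 1, all 9 were below sham, 4 fell, or 2 with members holding genes of another class left out, and the median log2 ratio was -0.98. On day 3, 8 of 10 were above sham, and Psmb8 and H2-T23 were below it. On day 7, 8 of 9 were below sham, Psmb8 fell, and the median was -0.46. H2-K1, a class I heavy chain, stood at 1226, 633, 1657 and 1244 CPM, and B2m, its light chain, at 1183, 684, 1357 and 1174 CPM. The immunoproteasome subunit Psmb8 stood at 390, 151, 358 and 182 CPM. Tap1, a subunit of the peptide transporter TAP, stood at 89.2, 27.8, 115 and 62.4 CPM. H2-Q7 was the gene of the list past 2-fold on day 3 (34.7 CPM in sham and 105 CPM on day 3), and it was compared through its day 3 level alone. Class I genes are similar enough in sequence for reads to be split among them.

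**Figure D2:**
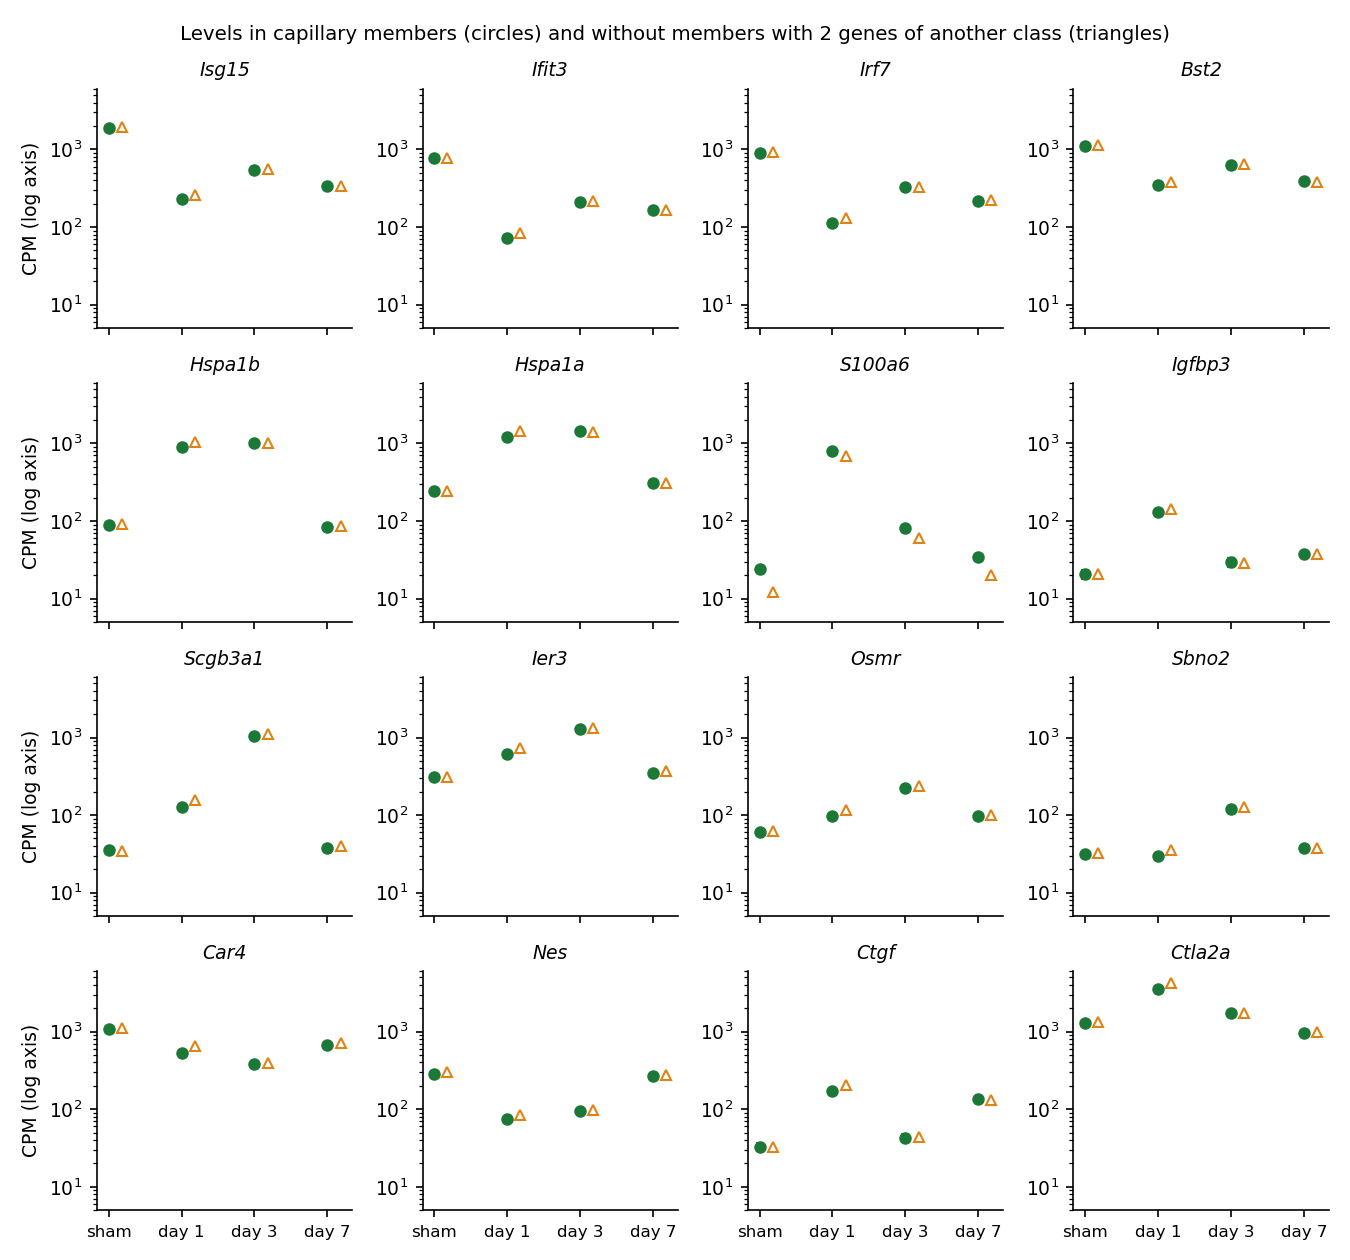
Levels of 16 genes in the capillary members of each library, in CPM on a log axis. Circles are sums over all members with exact Poisson intervals, most of them smaller than the circle, and triangles leave out members with at least 2 genes of another class. The interferon genes in the top row were highest in sham, Hspa1b and Hspa1a were high on days 1 and 3, and Scgb3a1 peaked on day 3 at 1053 CPM.

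The inducible Hsp70 genes Hspa1a and Hspa1b were high on days 1 and 3 and near sham on day 7. They encode the same inducible chaperone, which refolds damaged proteins, and are nearly identical in sequence, so that reads may be split between them. Hspa1b stood at 89.2, 887, 1025 and 83.4 CPM, a ratio to sham of 9.95 on day 1 (9.37 to 10.6) and 11.5 on day 3 (10.8 to 12.2). Hspa1a stood at 243, 1206, 1448 and 309.6 CPM. On day 7 the ratio of Hspa1b was 0.935, with an interval from 0.862 to 1.01 that includes no change. These were the 2 genes that rose among the 11 chaperones compared on days 1 and 3, and none fell. The median log2 ratio of the list was 0.14 on day 1, between -0.03 and 0.30 over the settings tried, and 0.38 on day 3. Among the rest, Hspb1, a small heat shock protein, stood at 2467, 2726, 3201 and 2136 CPM, Hspa8 at 1196, 1179, 1563 and 818 CPM, and Dnaja1, a cofactor of Hsp70, at 511, 326, 485 and 324 CPM.

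Hspa1b (34956436 to 34959238) and Hspa1a (34969190 to 34972156) lie next to each other on the reverse strand of chromosome 17. Their RefSeq promoter windows, chr17:34959189-34959488 and chr17:34972107-34972406, are shown because the copies rose together. Capitals mark GAANNTTC, a heat shock element phase added after the data were seen.
Hspa1b: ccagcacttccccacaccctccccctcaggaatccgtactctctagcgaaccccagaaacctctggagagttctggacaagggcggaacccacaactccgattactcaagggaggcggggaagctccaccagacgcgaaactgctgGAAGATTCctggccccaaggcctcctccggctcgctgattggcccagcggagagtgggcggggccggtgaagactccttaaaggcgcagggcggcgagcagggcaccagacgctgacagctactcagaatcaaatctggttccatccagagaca
Hspa1a: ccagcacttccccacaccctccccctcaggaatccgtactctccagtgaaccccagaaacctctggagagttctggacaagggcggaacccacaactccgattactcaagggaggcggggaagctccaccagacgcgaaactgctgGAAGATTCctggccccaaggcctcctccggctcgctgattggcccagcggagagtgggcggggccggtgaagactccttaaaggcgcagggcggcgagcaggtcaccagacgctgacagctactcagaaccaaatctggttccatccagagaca
The windows share 296 of 300 bases (98.7%), and each held 1 match, which is found in 7.89% of all windows. The other phase, TTCNNGAA, found in 8.55% of all windows, was in neither.

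The rise was uneven among cells. Among members thinned to 2000 UMIs, a UMI of Hspa1b was found in 6.87%, 56.6%, 40.8% and 7.6% of the members in the order sham, day 1, day 3 and day 7, and in 2.99%, 19.6%, 12.6% and 5.52% of the oligodendrocyte-class cells. At full depth the member shares were 8.94%, 33.3%, 24.1% and 6.67% and those of the oligodendrocyte-class cells, which had more UMIs per cell, 12.1%, 30.6%, 25.7% and 16.3%, so that the members lay above the reference class on day 1 alone. The share of members above the 95th percentile of the sham cells for the whole list, 26 UMIs, was 4.71%, 29.4%, 27.7% and 4.62%. The 95th percentile itself was 26, 57, 61 and 26 UMIs, while the median cell went from 13 UMIs in sham to 17 on days 1 and 3. A subset of the members therefore held much of the rise. Hspa1b was also higher on days 1 and 3 in the arterial members (43.7, 515, 1133 and 122 CPM) and in the venous members (16.4, 273, 552 and 57.6 CPM).

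Of the 117 genes that rose on day 1, the 12 largest by the naming rule were S100a6, Hspa1b, Hspa1a, Igfbp3, Ctgf, Scgb3a1, Ctla2a, S100a11, Hrct1, Ercc1, Usmg5 and Gngt2. The rule asks for 100 CPM in 1 of the libraries compared and passes over genes that any other cell class held at over 5 times the capillary level, which set aside 32 further genes past 2-fold on day 1, among them Ttr, Clu, Enpp2 and Fth1. S100a6, a calcium-binding protein, stood at 23.9, 793, 81.4 and 34.8 CPM, a day 1 ratio of 33.1 (29.6 to 37.2), and at 12.2, 695, 60.8 and 20.1 CPM without the members that held genes of another class. At 2000 UMIs it was found in 24.5% of the day 1 members and 1.58% of the sham members, against 17.4% and 12.9% of the oligodendrocyte-class cells. At full depth the member shares were 2.5% in sham and 18.2% on day 1, against 37.5% and 33.6% of the oligodendrocyte-class cells, so that the day 1 share of the members lay above that of the reference class at equal depth and below it at full depth. The arterial members held S100a6 at 197 CPM already in sham and at 831 CPM on day 1. Usmg5, a subunit of the mitochondrial ATP synthase, was the named rise that was no longer past 2-fold without the members that held genes of another class (170.2 CPM in sham and 289.6 CPM on day 1). The promoter window of S100a6 (chromosome 3, 90612882 to 90624181, forward strand), chr3:90612644-90612943, is shown because it had the largest rise of day 1. Capitals mark matches on either strand to ACGTG, the core of the hypoxia-inducible factor motif.
S100a6: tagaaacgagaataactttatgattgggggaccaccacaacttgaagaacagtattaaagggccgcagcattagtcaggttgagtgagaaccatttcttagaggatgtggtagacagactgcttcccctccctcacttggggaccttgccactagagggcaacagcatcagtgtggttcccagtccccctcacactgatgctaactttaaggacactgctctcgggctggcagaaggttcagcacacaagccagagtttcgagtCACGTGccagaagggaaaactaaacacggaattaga
The 2 matches overlap on opposite strands after the gene start, and 19.7% of all windows hold at least 1. Of the other motifs searched, the heat shock phase GAANNTTC was also in this window.

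Igfbp3, which binds insulin-like growth factors, stood at 20.5, 129, 29.3 and 38.1 CPM. Ctgf, a matrix-associated target of YAP signalling, stood at 33, 172, 42.7 and 134 CPM, so that it rose on days 1 and 7 but not on day 3. In the arterial members Ctgf stood at 46.1 CPM in sham and 53.6 CPM on day 1, a ratio of 1.16 (0.811 to 1.65). Ctla2a, a cysteine protease inhibitor, stood at 1295, 3533, 1720 and 967 CPM. Its exons overlap those of the predicted genes Gm49391 and Gm49393 on the same strand, so that its level is uncertain. S100a11 stood at 160.1, 447, 371 and 187 CPM. Apln, the tip cell ligand apelin, was near 0 in sham (1.12 CPM) and on days 3 and 7 (3.33 and 0.703 CPM) and stood at 60.8 CPM on day 1.

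Several genes of the actin cytoskeleton list were higher on day 1. Of the 11 compared on all 3 days, 3 rose on day 1 and none fell. These were S100a11, given above, Anxa2, which links membranes to actin and stood at 236, 519, 351 and 264 CPM, and its partner S100a10 (65.2, 168, 113 and 79.6 CPM). S100a6 and the galectin Lgals1 (16.9, 121, 40.9 and 17.3 CPM) entered through their later levels. Once members with genes of another class were left out, Lgals1 stood at 10.4, 59.7, 23.9 and 8.2 CPM. Actb, the main cytoplasmic actin, stood at 4366, 6199, 5379 and 3848 CPM, and Tmsb4x, which holds actin monomers, at 8942, 10534, 6972 and 6237 CPM. The summed level of the list was 18815, 24704, 18602 and 14643 CPM, highest on day 1 and lowest on day 7, where the median of -0.11 lay between -0.16 and 0.09 over the settings tried.

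Of the metallothionein and iron genes, Fth1 rose on days 1 and 3. It encodes the ferritin heavy chain and stood at 2262, 5495, 5481 and 2314 CPM, with a ratio to sham of 2.43 on day 1 (2.4 to 2.46) that was nearly the same on day 3, at 2.42 (2.39 to 2.46). The other cell classes held it at higher levels, but it was nearly as high without the members that held their genes (2210, 5288, 5425 and 2240 CPM). Ftl1, the light chain, stood at 1185, 1301, 1223 and 889 CPM. The metallothionein Mt1, which binds zinc and copper, stood at 1005, 1351, 1349 and 806 CPM, and without those members at 1019 and 982 CPM in sham and on day 1. The heavy chain thus rose and the light chain did not. Of the list 2 of 6 rose on day 1 and 1 of 5 on day 3. The other rise of day 1 was the transferrin gene Trf, which entered through its day 1 level (22.9 and 74.8 CPM in sham and on day 1) and stood at 20.7 and 31.5 CPM without the members that held genes of another class.

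Several genes of the acute-phase and STAT3 response list were highest on day 3. Cytokines of the interleukin-6 family, among them oncostatin M, act through the shared receptor chain gp130 on STAT3, which can induce genes of this kind. Whether STAT3 acted on them here was not tested. Of the list's 14 genes, 6 were compared on all 3 days, and 2 of these, Osmr and Cebpd, rose on day 3, whereas none changed by 2-fold on days 1 and 7. A further 4, Lcn2, Lrg1, Bcl3 and Ch25h, reached 50 CPM on day 3 alone and so entered the comparison through the library where they were high, and their values are given as a description. With members holding genes of another class left out, Socs3 was also past 2-fold on day 3 (113 CPM in sham and 239.5 CPM on day 3).

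On the receptor side, Osmr, the oncostatin M receptor, stood at 60.1, 96.2, 226 and 96.7 CPM, a day 3 ratio of 3.75 (3.45 to 4.08), and Il6st, which encodes gp130, at 87.9, 56.2, 118 and 95.1 CPM. Stat3 stood at 75, 81.2, 138 and 91.5 CPM. Among the targets, Socs3, a feedback inhibitor of the pathway, stood at 115, 119, 234 and 95.4 CPM, and Bcl3, a nuclear cofactor of NF-kB, at 9.71, 16.7, 56.9 and 13.8 CPM. The transcription factor Cebpd stood at 125, 201, 338 and 138 CPM. Lcn2, an iron-scavenging acute-phase protein, stood at 6.95, 29.5, 132 and 24.3 CPM, Lrg1 at 1.42, 21.4, 75.6 and 2.88 CPM, and Ch25h, which makes 25-hydroxycholesterol, at 4.18, 33.6, 86.5 and 14.3 CPM. Of the 14 genes 11 were at their highest on day 3. This count is a description, because it includes Lcn2, Lrg1, Bcl3 and Ch25h, which entered through that day. It also includes genes that were not compared, and the share of all genes highest on day 3 was not counted. The transcription factor gene Cebpb (70.9, 108, 93.4 and 65.3 CPM), the protease inhibitor gene Timp1 (2.02, 25, 12.2 and 1.83 CPM) and Upp1 (1.12, 17.7, 10.2 and 1.69 CPM) were highest on day 1.

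Leukocyte markers were also at their highest in the day 3 members. The 7 genes summed to 156, 76.8, 317 and 148 CPM, most of it S100a8 and S100a9 of neutrophils, and S100a9 rose on day 3 (67 CPM in sham and 154 CPM on day 3), whereas Ptprc, Cd3e, Cd79a and Itgb2 stayed under 6 CPM. With members holding genes of another class left out the sum was 10, 5.39, 61.7 and 15.8 CPM. At 2000 UMIs, 1.01%, 1.24%, 9.85% and 2.23% of the members held a UMI of these markers. Oligodendrocyte-class cells held them at 4.62, 13.1, 1031 and 4.37 CPM. Neutrophil-class cells of day 3 held Lcn2 at 10445 CPM and Lrg1 at 1048 CPM, and for this Lcn2 was passed over by the naming rule. With the same members left out Lcn2 stood at 3.44, 31.3, 126 and 24 CPM and Lrg1 at 1.54, 25.3, 75.6 and 2.82 CPM. The part of the remaining leukocyte RNA in these levels was not tested.

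Among the 12 largest rises of day 3, Sbno2, a corepressor induced by STAT3, stood at 31.1, 29.7, 121 and 37.4 CPM. Ier3, an immediate-early survival factor, stood at 312, 619, 1274 and 353 CPM. Acer2, the Golgi alkaline ceramidase, stood at 85.9, 158, 358 and 189 CPM, and the RNA-binding protein gene Zfp36l2 at 47.4, 84.6, 166 and 96.5 CPM. Tmem176a stood at 22, 84.1, 152 and 22.1 CPM, and its neighbour Tmem176b at 85.7, 196, 288 and 71 CPM. Tmem252 stood at 187, 373, 612 and 107 CPM. Each of these 7 peaked on day 3.

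The largest rise of day 3 was Scgb3a1 (chromosome 11, 49663610 to 49665118, forward strand), which encodes a small secreted secretoglobin. It stood at 35.3, 127, 1053 and 38.1 CPM, a ratio to sham of 29.9 on day 3 (27.2 to 32.8). The day 1 ratio was 3.6 (3.24 to 4), and that of day 7 was 1.08 with an interval from 0.953 to 1.22 that includes no change. A UMI was found in 6.29%, 16.7%, 47.3% and 5.64% of the members at 2000 UMIs, and in 0 of the sham and day 7 oligodendrocyte-class cells, 0.0777% of those of day 1 and 1.1% of those of day 3. The 10% of day 3 members with the most Scgb3a1 UMIs held 65.9% of them. At full depth the member shares were 10.4%, 15.4%, 47% and 5.52% and those of the oligodendrocyte-class cells 0.0726%, 0.192%, 3.94% and 0%. It was nearly absent from the arterial members (0.971, 2.1, 7.41 and 6.39 CPM) and stood at 21.9, 32.4, 382 and 152 CPM in the venous members. The RefSeq promoter window, chr11:49663345-49663644, is shown because of the size of this rise and was chosen after its values were seen. Capitals mark a match to the STAT motif TTCNNNGAA.
Scgb3a1: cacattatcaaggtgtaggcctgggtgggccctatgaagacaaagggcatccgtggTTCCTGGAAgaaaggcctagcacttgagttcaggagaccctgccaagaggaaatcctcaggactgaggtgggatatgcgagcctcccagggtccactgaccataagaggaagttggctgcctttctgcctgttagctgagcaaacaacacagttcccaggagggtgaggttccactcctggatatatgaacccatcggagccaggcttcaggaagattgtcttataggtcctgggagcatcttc
The motif is found in 8.33% of all windows, and the heat shock motif TTCNNGAA was also in this window. Of the 14 acute-phase genes 12 had a window, and 1 of these, Socs3, held a match.

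By summed level the acute-phase list was higher in the venous members, and on day 3 most of that sum was Lcn2. The summed level of the list was 576, 833, 1560 and 663 CPM in the capillary members, 746, 1117, 1181 and 926 CPM in the arterial members, and 2711, 3557, 18610 and 4089 CPM in the venous members. The leukocyte markers summed to 1655 CPM in the venous members and 92.5 CPM in the arterial members on day 3. Lcn2 reached 11499 CPM in the venous members on day 3, where it was at 132 CPM in the capillary members and 19.2 CPM in the arterial members. In relative terms the day 3 ratio of Lcn2 was 18.9 (15.3 to 23.7) in the capillary members and 36.2 (28 to 47.7) in the venous members. Osmr was closer, at 109.5, 86.5, 316 and 206 CPM in the venous members, and on day 1 it was lower there than in the capillary members. The share of capillary members with more UMIs of the list than the 95th percentile of sham, 3 UMIs, was 4.84%, 13.6%, 31.3% and 6.86%. On day 3, 29.7% of these cells were also above the sham 95th percentile of the heat shock list, against 26.8% of the other members.

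**Figure D3:**
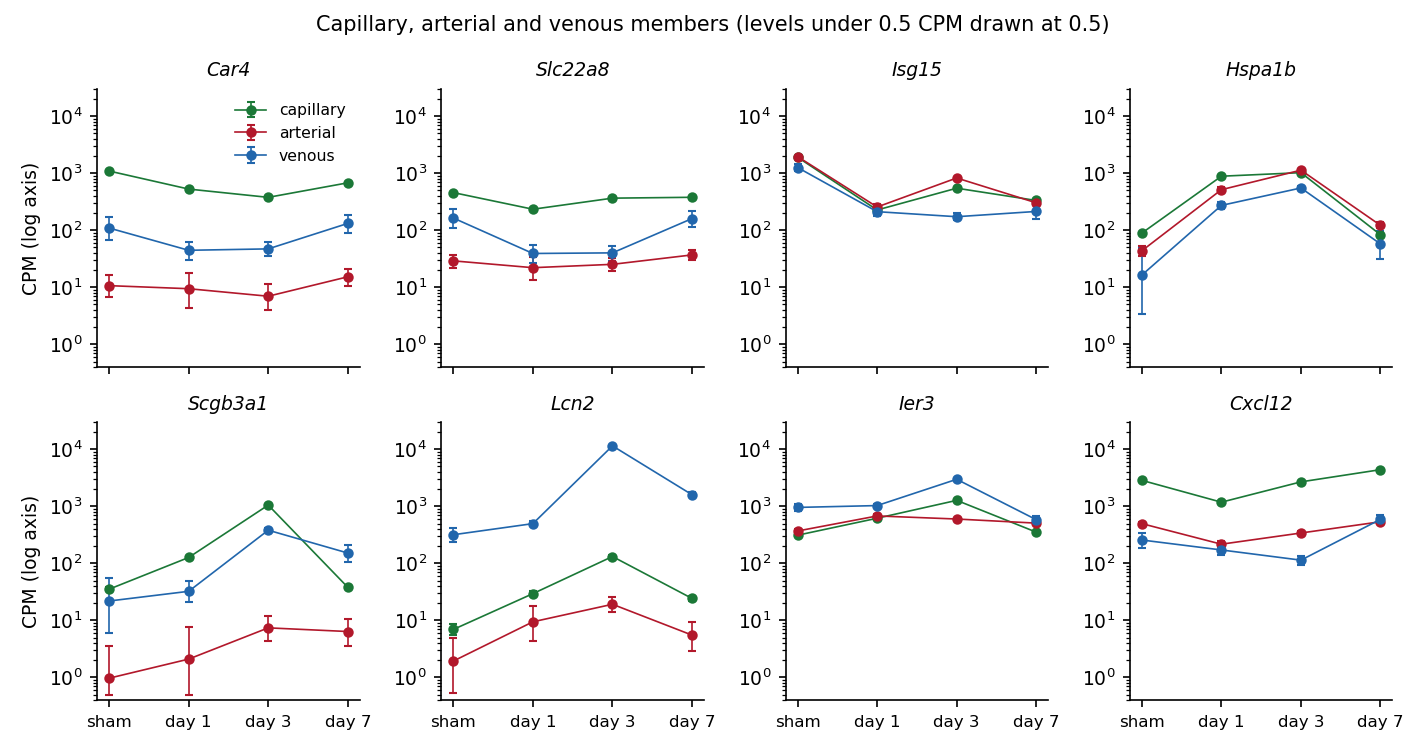
Levels of 8 genes in capillary (green), arterial (red) and venous (blue) members of each library, in CPM on a log axis, with exact Poisson intervals. Levels under 0.5 CPM are drawn at 0.5. Car4, Slc22a8 and Cxcl12 were highest in the capillary members in all 4 libraries, Lcn2 was highest in the venous members, and Isg15 was highest in sham in all 3 groups.

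Several genes of leukocyte adhesion, chemokines and the NF-kB response were low or within 2-fold of sham in capillary members. The leukocyte adhesion genes Icam1 (43.3, 58.6, 48.8 and 50.2 CPM) and Vcam1 (37.9, 58.7, 56.7 and 39.6 CPM) stayed within 2-fold of sham. Sele, the E-selectin gene, was at most 5.17 CPM, against 54.8, 151, 317 and 169 CPM in the venous members. The rule took out cells with at least 2 venous genes, among them the adhesion gene Selp and the interleukin-1 receptor gene Il1r1. Venous members were asked to hold at least 2 of these genes. The low levels here and the contrast in Sele are therefore a description. The day 3 median of the adhesion list was 0.29 and lay between -0.02 and 1.12 over the settings tried. Among the chemokines, Ccl2, Cxcl9 and Cxcl10 were under 10 CPM in all 4 libraries, and Cxcl2, which attracts neutrophils, stood at 16.6, 60.1, 15.1 and 17.6 CPM and was compared through its day 1 level alone. Of 11 NF-kB response genes 3 were compared and none changed by 2-fold on any day. The inhibitor Nfkbia stood at 1470, 917, 987 and 1619 CPM. The exception among adhesion genes was Podxl, a sialomucin of the luminal surface that stood at 497, 311, 1390 and 688 CPM and rose on day 3. In the arterial members Podxl stood at 953, 768, 1007 and 1063 CPM.

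Cxcl12, a homeostatic chemokine of capillaries, followed another course. It stood at 2859, 1183, 2687 and 4399 CPM, a ratio to sham of 0.414 on day 1 (0.406 to 0.422). The day 3 ratio was 0.94 (0.924 to 0.956), and by day 7 it was 1.54 (1.52 to 1.56). It was over 5 times as high in the capillary members as in the arterial members in each library, where it stood at 498, 217, 341 and 537 CPM. Its fall on day 1 was also present there, with a ratio of 0.435 (0.373 to 0.506).

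Among further genes of brain endothelium, Ly6c1 stood at 4462, 4880, 8423 and 4121 CPM and Ly6a at 4527, 3790, 7970 and 3722 CPM, both membrane-anchored proteins of mouse endothelium that were highest on day 3 and stayed within 2-fold of sham.

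Of the 5 capillary identity genes outside the rule, 4 were below sham on each day. By 2-fold, 2 fell on day 1 and 1 on day 3, and the medians over the 5 were -0.94, -0.31 and -0.53. Car4 stood at 1094, 528, 378 and 679.6 CPM, a ratio of 0.345 (0.332 to 0.359) on day 3. Rgcc, a cell cycle regulator enriched in capillaries, stood at 892, 367, 496 and 614 CPM, and Itm2a at 5432, 3642, 4836 and 3290 CPM. Without the members that held genes of another class, Car4 stood at 1110, 643, 390.2 and 705 CPM and was within 2-fold of sham on day 1. The zinc importer Slc39a10 went the other way, at 609, 704, 827 and 986 CPM. The 9 arterial genes outside the rule summed to 1122, 1832, 1812 and 1095 CPM in the same members. Their medians were 0.39, 0.53 and 0.29 on days 1, 3 and 7, and 6 of 7 compared on day 7 were above sham. The sums were 1044, 1451, 1701 and 1034 CPM when members with genes of another class were left out. The 5 venous genes outside the rule summed to 2333, 3569, 1703 and 1339 CPM, most of it Tmsb10 (1919, 3207, 1218 and 988 CPM). The intermediate filament gene Nes stood at 287, 75.3, 93.5 and 266 CPM, and fell on days 1 and 3. Rflnb, a regulator of the actin crosslinker filamin, had the largest fall of day 3 under the naming rule, which leaves out predicted genes, and stood at 157, 77, 35.2 and 69.5 CPM. The linker histone gene Hist1h1e stood at 166, 38.3, 42.5 and 145 CPM, and it overlaps Hist1h2be and Gm11398, so that its level is uncertain.

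Few genes of the junctions and of vesicle transport changed by 2-fold. Of the tight and adherens junction genes, 12 were compared on each day. The connexin gene Gja1, which astrocytes carry, was past 2-fold on day 1 (36.1 and 97.7 CPM in sham and on day 1) but compared through its day 1 level alone, and it stood at 32 and 74.8 CPM when members with genes of another class were left out. None fell, and the medians were -0.27, 0.02 and 0.42. Ocln, encoding occludin, stood at 208, 202, 264 and 323 CPM, and the scaffold Tjp1 at 485, 435, 444 and 755 CPM. Of the caveolae and vesicle genes 8 were compared and none changed by 2-fold. Cav1, the coat protein of caveolae, stood at 229, 182, 317 and 299 CPM, and Plvap, the diaphragm protein of leaky vessels, stayed at or under 22.1 CPM.

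Of the Wnt signalling list, the target genes Axin2 and Nkd1 were lowest on day 1, within 2-fold of sham only after the 10 CPM addition for Axin2. Wnt ligands act on endothelium through Fzd4 and Lrp5 or Lrp6 to stabilise beta-catenin and induce barrier genes. None of 17 genes of this list changed by 2-fold under the 10 CPM addition, and the medians were -0.31, -0.09 and 0.30. The target gene Axin2 stood at 114, 54.5, 79.7 and 137 CPM, and Nkd1, another target and inhibitor, at 237, 119, 132 and 229.9 CPM. The transcription factor gene Lef1 stood at 419, 249, 418 and 569 CPM. The receptor gene Fzd4 stood at 102, 109.7, 91.8 and 165 CPM. Both targets and Lef1 were lowest on day 1, whereas Fzd4 was not. The day 1 median was -0.20 when members with genes of another class were left out.

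The flow-responsive genes Klf2 and Klf4 and the VEGF receptor genes Kdr and Nrp1 were lowest on day 1. Klf2, the factor induced by shear stress that keeps endothelium quiescent, stood at 5786, 2890, 3646 and 4027 CPM, a day 1 ratio of 0.5 (0.493 to 0.506). In the arterial members its day 1 ratio was 0.892 (0.863 to 0.922). Klf4 stood at 780.5, 355, 554 and 896 CPM and was the 1 of 6 genes compared that fell on day 1, whereas none of 6 fell without the members that held genes of another class. Other genes of the list had another course, as Plat, the tissue plasminogen activator gene, stood at 169, 233, 125 and 338 CPM and Edn1, the endothelin-1 gene, at 228, 175, 166 and 252 CPM. The median of the list on day 1 was -0.52 and lay between -0.56 and 0.01 over 13 settings of the rule, the scaling and the filters. The VEGF receptor gene Kdr stood at 477, 234, 291 and 622 CPM, and its coreceptor Nrp1 at 212, 76.2, 176 and 233 CPM. Kdr and Nrp1 were the 2 genes of the VEGF list that fell on day 1. Without the members that held genes of another class Kdr stood at 499, 279, 307 and 645 CPM and was within 2-fold, so that Nrp1 alone fell, and the vasodilator peptide gene Adm (48.5, 120.2, 102 and 46.9 CPM) was past 2-fold. Adm without those members, and with all members Apln and the urokinase receptor gene Plaur (23.9, 68.3, 45.1 and 25.3 CPM), which were also past 2-fold, were compared through their day 1 level alone. Klf4, Kdr and Nrp1 were above sham on day 7. Pltp, a phospholipid transfer protein, stood at 3564, 1347, 2602 and 2232 CPM.

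**Figure D4:**
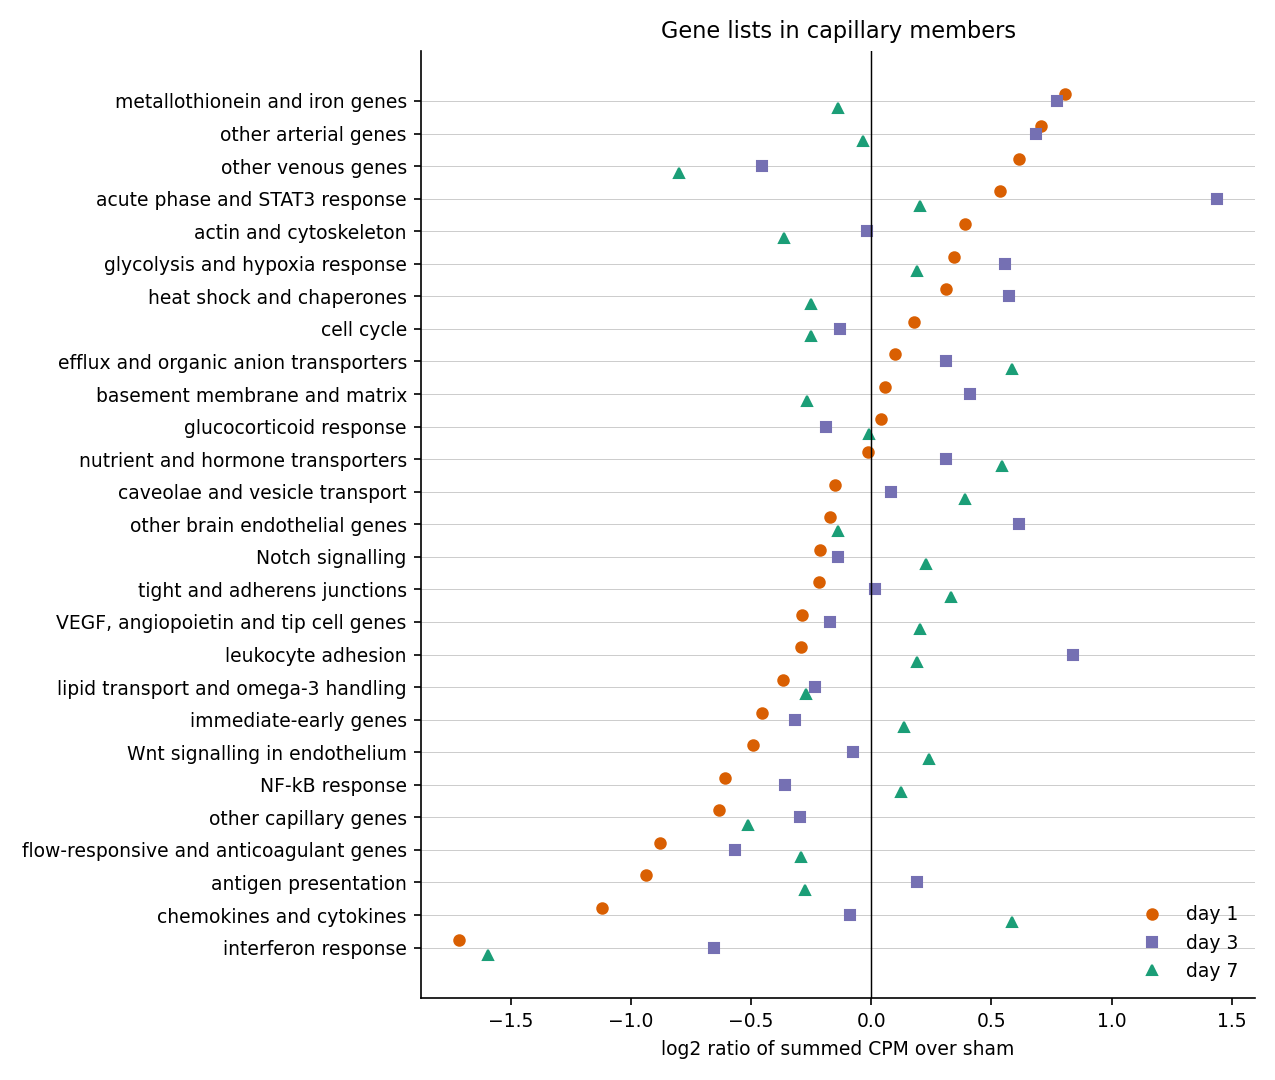
Ratio of each gene list's summed level over sham in the capillary members, on a log2 scale, on day 1 (circles), day 3 (squares) and day 7 (triangles), with lists ordered by day 1. The interferon list was lowest on day 1, the acute-phase list was highest on day 3, and both transporter lists stood higher on day 7 than on days 1 and 3.

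Most transporter levels were higher on day 7 than in sham, nearly all by less than 2-fold. Above sham on day 7 were 11 of 14 nutrient and hormone transporters compared and 5 of 6 efflux and organic anion transporters. The summed level of the nutrient and hormone transporters was 6885, 6826, 8526 and 10019 CPM, and that of the efflux and organic anion transporters 5767, 6157, 7155 and 8639 CPM. The medians on day 7 were 0.47 and 0.49, against 0.06 for all genes, but 1 of the 20 transporters compared rose by 2-fold. Junction genes (0.42) and Notch signalling genes (0.45, with none of 6 past 2-fold) had day 7 medians of about the same size, and the receptor gene Notch1 stood at 176, 143, 173 and 307 CPM. The transporter past 2-fold was Lrp8, a lipoprotein receptor that takes up selenoprotein P, which stood at 84.9, 100, 88.8 and 182 CPM. The organic anion carrier Slco1a4 stood at 2190, 2824, 3089 and 3947 CPM and the drug pump gene Abcb1a, encoding P-glycoprotein, at 919, 828, 1048 and 1410 CPM. The taurine carrier Slc6a6 stood at 1255, 801, 1287 and 2235 CPM. Slc2a1, the glucose carrier GLUT1, stood at 1986, 2385, 3086 and 2665 CPM and was highest on day 3. Igf1r, which is counted with the hormone receptors of this list, stood at 865, 875, 933 and 1713 CPM.

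The named rises of day 7 were led by Ctgf, at 33 CPM in sham and 134 CPM on day 7, which was also among those of day 1. Rictor, a subunit of mTORC2, stood at 71.1, 89.1, 119 and 206 CPM. Ddit4, an inhibitor of mTORC1 induced by stress and glucocorticoids, stood at 45.4, 73.2, 64.5 and 139 CPM. The immediate-early gene Fosb stood at 327, 234, 269 and 752 CPM and Egr1 at 164, 217, 244 and 419 CPM. Sema7a, a membrane-anchored semaphorin, stood at 276, 363, 347 and 636 CPM, and the nuclear envelope gene Syne1 at 252, 138, 201 and 588 CPM. The same genes were higher on day 7 in the arterial members for Rictor (64.6 and 139 CPM in sham and on day 7), Ddit4 (75.2 and 195 CPM) and Fosb (553 and 1082 CPM). Of 13 immediate-early genes compared 2, Fosb and Egr1, rose on day 7 and none changed by 2-fold on day 1, where Ier3 rose without the members that held genes of another class, and the summed level of the list was 16274, 11872, 13050 and 17836 CPM. In the members with at least 2000 UMIs, thinned to that depth, the day 1 difference went the other way. Their mean was 29.8, 33.7, 27.6 and 41.5 UMIs of the list and their median 23, 24, 11 and 34 UMIs. Shallower members, 1174 of 3446 in sham and 2494 of 4342 on day 1, were left out of these values. The median log2 ratio of the list on day 1 was -0.44 and lay between -0.46 and 0.12 over the settings tried. The salt-inducible kinase gene Sik1 stood at 82.4, 78.9, 55.2 and 196 CPM, the RhoA exchange factor gene Net1 at 91.4, 123, 84.2 and 238 CPM, and Fam107a at 32, 57.6, 37.3 and 107 CPM. Per1, a clock gene induced by glucocorticoids, stood at 37.7, 57.4, 43.6 and 91.5 CPM and was compared on day 7 through its day 7 level alone. Among the falls of day 7, Gsta4, a glutathione transferase that clears lipid peroxidation products, stood at 647, 444, 728 and 219 CPM, and the glutamine carrier Slc38a5, enriched in venous endothelium, at 257, 129, 244 and 86.5 CPM.

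Genes of the matrix showed single large differences. Igfbp7, a secreted binding protein of the capillary basement membrane, stood at 3231, 3749, 6520 and 1854 CPM and was the 1 gene of 13 compared that rose on day 3. Sparc, a matricellular protein, stood at 2089, 2132, 1359 and 829 CPM, a day 7 ratio of 0.397 (0.388 to 0.406), and was the 1 of 14 that fell on day 7. Fn1, fibronectin, stood at 592, 899, 928 and 1027 CPM. In the glycolysis and hypoxia list 2 of 13 genes rose on day 3, and neither is a glycolytic enzyme. These were Bnip3, a mitophagy receptor induced by hypoxia (52.8, 68.5, 119 and 98 CPM), and Ankrd37, a target of the hypoxia-inducible factor (92.4, 77.1, 249.5 and 58.6 CPM). Among the enzymes Ldha stood at 395, 429.8, 743 and 572 CPM, and none of those compared passed 2-fold. Markers of dividing cells were near 0, with Mki67 at 2.17, 6.18, 0.616 and 0.0703 CPM and Top2a at 2.32, 11.2, 2.71 and 0.914 CPM.

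**Figure D5:**
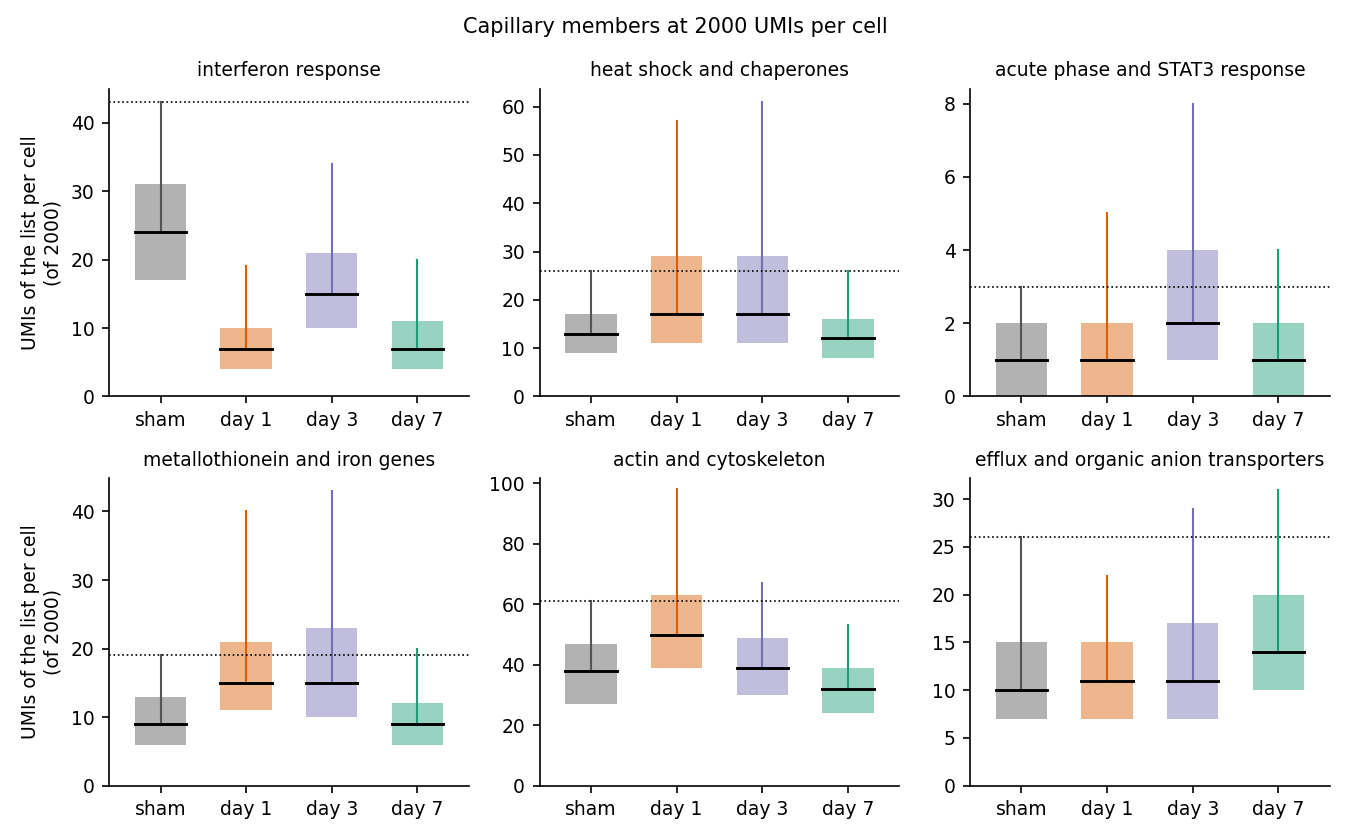
UMIs of 6 gene lists per capillary member after thinning to 2000 UMIs, with shallower members left out. Boxes span the lower to upper quartile with the median as a black line, thin lines reach the 95th percentile, and the dotted line is the sham 95th percentile. The whole interferon distribution was below sham on days 1, 3 and 7, least so on day 3. The heat shock list lengthened at the top on days 1 and 3 while its median moved from 13 to 17 UMIs. The metallothionein and iron list, of which Fth1 is the gene that rose on days 1 and 3, had medians of 9, 15, 15 and 9 UMIs.

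Among the largest falls were haemoglobin genes, which these cells are not known to make. The haemoglobin genes Hbb-bs (5785, 330.2, 3842 and 2033 CPM) and Hba-a1 (1082, 77.8, 759.8 and 298 CPM) fell on days 1 and 7, and Hba-a1 and Hba-a2 are near-identical copies. In the sham library the 5 erythrocyte genes stood at 10495 CPM in microglia-class cells and 8562 CPM in the capillary members, and on day 1 at 412 and 498 CPM. Lars2 (585, 96.8, 176 and 436 CPM) fell on days 1 and 3 together with Gm42418, which overlaps ribosomal RNA and stood at 12121, 1496, 2532 and 6057 CPM. The ribosomal protein share of the members' UMIs was 8.27%, 11.7%, 8.19% and 7.11%, and Malat1, a nuclear RNA, stood at 27039, 14292, 15995 and 29217 CPM. Their part in the other results was not tested.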

How the data were processed

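The authors aligned the droplet reads and deposited 1 filtered matrix of UMI counts for each library, used here as deposited (31053 genes). The file headers name Cell Ranger 4.0.0, whereas the submitters' processing notes name Cell Ranger 3.0.1 and Seurat 4.1.2. Those notes also name a human build, but the gene identifiers are those of mouse, and positions were taken from GENCODE vM21 on GRCm38.

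The deposited libraries held 11744, 17780, 11983 and 17922 cells and 90607320, 104023002, 69392755 and 90072740 UMIs (sham, day 1, day 3, day 7), with 13382492, 11969651, 8118891 and 14225124 UMIs in the members. UMIs were summed over the members of a library and expressed as CPM, so the counting error of a level follows from its UMI sum. Ratios of sums have exact conditional 95% intervals, sums exact Poisson intervals and shares Clopper-Pearson intervals, all for counting error only. How many mice entered a library is not given in the sources used here. CPM is counts per 1000000 UMIs. Named genes are all genes of the rule, the 12 largest rises and falls of each day among genes that reached 100 CPM and that no other cell class held at over 5 times the capillary level (predicted genes and sex-linked markers left out), up to 4 members of each list, and members needed to say what did not move. Further members of several lists, the acute-phase list among them, were named after their values were seen. Promoters are those of the first 3 named rises of day 1 that belong to a list, with 4 more chosen after seeing the data. A cell was put in another class with at least 3 of 4 marker genes and at most 1 pan-endothelial gene, and classes under 50 cells were not used. Doublets were called with Scrublet (scanpy 1.11.5) as an alternative only and stayed in the members. Calculations used Python 3.11.15, numpy 2.4.6, pandas 2.3.3 and scipy 1.17.1, and were tested on simulated data. The members and gene lists were chosen with earlier results of these data known. Alternatives covered the limits on genes and mitochondrial UMIs, the thresholds of the rule, depth, doublets, scaling, the CPM added and the filter.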

Additional observations from a re-analysis of the deposited data

How the results depend on the processing

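Each group is 1 library, so neither the spread between mice nor a call of significance can be had, and depth limits the shares and the genes near the 50 CPM minimum. No paired analysis was possible because each group holds 1 library. In the order sham, day 1, day 3 and day 7, the share of members among kept cells was 41.9%, 31%, 32% and 40.4% with a limit of 3000 genes, and 38.8%, 27.9%, 29.8% and 42.9% with a mitochondrial limit of 5%. Reading the rule at 2000 UMIs, with shallower cells left out, gave a share of 32.8%, 17.8%, 19% and 28.3%. It was 29.5%, 21%, 21.1% and 29.7% with at least 3 capillary genes, 36.9%, 28.6%, 31% and 38.7% with none required, 39.4%, 33.6%, 36.3% and 42.1% without the venous limit, and 20.1%, 10.7%, 10.3% and 17.8% with no arterial or venous UMI allowed. Without called doublets it was 27.2% on day 1 and 37% on day 7. Without the members that held genes of another class, an alternative chosen after seeing the data, it was 30.8%, 23.2%, 25.3% and 32.7%. Sham and day 7 had higher shares than days 1 and 3 under each of these settings.

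The 117 rises of day 1, of 3790 genes compared, became 62 with a limit of 3000 genes and 67 with the rule read at 2000 UMIs. They became 54 without the members that held genes of another class and 64 when every cell weighed the same. With a filter of 20 CPM they were 244 of 7009 genes compared, and with no filter 292 of 19156. The 49 rises of day 7 became 86 with 1 CPM added and 28 when every cell weighed the same. The other counts of rises and falls stayed within 1.5 times, and the cause of these shifts was not tested. Median-of-ratios scaling moved the median of all genes on day 1 from -0.10 to 0.03 on the log2 scale and the calls to 156 rises and 90 falls (63.4% rises against 49.4%). Rises were 62.6% of the day 1 calls with a filter of 20 CPM, 66.5% with no filter, 37.2% without the members that held genes of another class, 39% with the rule read at 2000 UMIs and 38.3% when every cell weighed the same, and 64.7% and 40.6% of the day 7 calls (54.4% as reported) with 1 CPM added and with equal weight of cells. Of the named genes, 128 of 132 values of the day 1 rises and 129 of 132 of the day 7 rises kept their side of 2-fold. The exceptions were Usmg5 in 4 settings and, with equal weight of cells, Kcnq1ot1, Sema7a and Syne1 on day 7. No value changed direction among these.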
